A study of Homo sapiens with 2 samples.

Results

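Most genes described here encode proteins that define exons or assemble the spliceosome, and some LSM genes encode proteins of other RNA processes. They were taken from the gene tables by name, as SRSF, HNRNP, SF3A and SF3B, SNRP, LSM and PRPF genes without SNRPN. The rule uses no measured value, but it was chosen with earlier results of these data known. Of the 11943 listed genes, 79 were members, namely 12 SRSF, 21 HNRNP, 9 SF3A and SF3B, 11 SNRP, 13 LSM and 13 PRPF genes. Their mRNA was measured in wild-type HMC3 cells, an established human line labelled as microglia, treated with PBS as the vehicle or with rhPOSTN, recombinant human periostin, a secreted matricellular protein. RNA-seq gave 3 libraries per group, numbered 1 to 3, and both groups are of this 1 cell line at a single dose and duration. Nothing in the labels or methods says whether a group's libraries came from different cultures, and the p-values below cover only the spread between libraries, which may be technical. Where 3 values of a group stand in a row, they are those of libraries 1, 2 and 3 in this order.

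Introns are removed from precursor mRNA by the spliceosome, a machine that is built anew on each intron from small nuclear ribonucleoproteins (snRNPs) and many further proteins. SR proteins, encoded by the SRSF genes, bind exons and mostly promote their inclusion, while many hnRNP proteins coat the precursor mRNA and mask splice sites. The U1 snRNP marks the donor site and the U2 snRNP, with its SF3A and SF3B complexes, the branch site, before the tri-snRNP of U4, U6 and U5 joins and the catalytic centre forms around PRPF8. Sm proteins form a ring on the RNA of most snRNPs, and the related LSm proteins form the ring on U6. Immune cells, microglia among them, use alternative splicing widely, and many SR and hnRNP proteins control the splicing of their own mRNA. The tables give 1 value per gene, so the use of single exons was not measured.

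Every value is in FPKM, which divides the fragments of a gene by its transcript length and by the mapped fragments of its library, so levels can be compared between genes per length, and the depth of each library is unknown. The summed FPKM of the listed genes lay between 184122 and 195494 per library. PBS library 3 stood apart from the others. The 13 mitochondrially encoded genes made up 1.48% of its summed FPKM and 4.95% to 7.77% in the other 5 libraries. Results are therefore given with all 6 libraries and, where it matters, without PBS library 3. Among microglial and myeloid markers, CD68 was at 4.57 to 16.2 FPKM, TREM2 at 2.91 to 3.84 and CD14 at 0.979 to 2.32. Another 11 markers, TMEM119 and P2RY12 among them, were not among the listed genes. Of 4 astrocyte markers 0 were listed, and of 4 neuronal markers 2, SNAP25 at 0.813 to 2.30 FPKM and TUBB3 at 1.53 to 8.79. Of 7 mesenchymal markers, 6 were listed. VIM was at 169 to 210.0 FPKM, THY1 at 25.9 to 30.6, PDGFRB at 7.80 to 9.43 and ACTA2 at 4.32 to 5.75. COL1A1 was at 98.3 to 135 FPKM in 5 libraries and at 324 in PBS library 3. COL1A2 was at 0.305 to 0.572 FPKM in 5 libraries and at 1.36 in PBS library 3. The part of these differences in the results below was not tested.

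The members were abundant. The mean FPKM over the 6 libraries was at least 10 for 67 of the 79 genes and at least 100 for 6, and it ranged from 0.660 for SRSF12 to 169.9 for SNRPB, the gene of the Sm proteins B and B′. The median of the means was 28.7 FPKM among the 77 members that were tested and 7.16 FPKM among all 10982 tested genes. Together the 79 genes made up 1.60%, 1.56% and 1.68% of the summed FPKM of the PBS libraries and 1.55%, 1.57% and 1.53% of that of the rhPOSTN libraries. SRSF12 (0.733, 0.709 and 0.37 FPKM in the PBS group and 0.622, 0.652 and 0.875 in the rhPOSTN group) and HNRNPLL (1.06, 1.00 and 0.771 in the PBS group and 0.919, 0.943 and 0.892 in the rhPOSTN group) stayed under a mean of 1 FPKM in both groups and were listed but not tested. HNRNPLL is known for its control of CD45 splicing in lymphocytes.

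**Figure D1:**
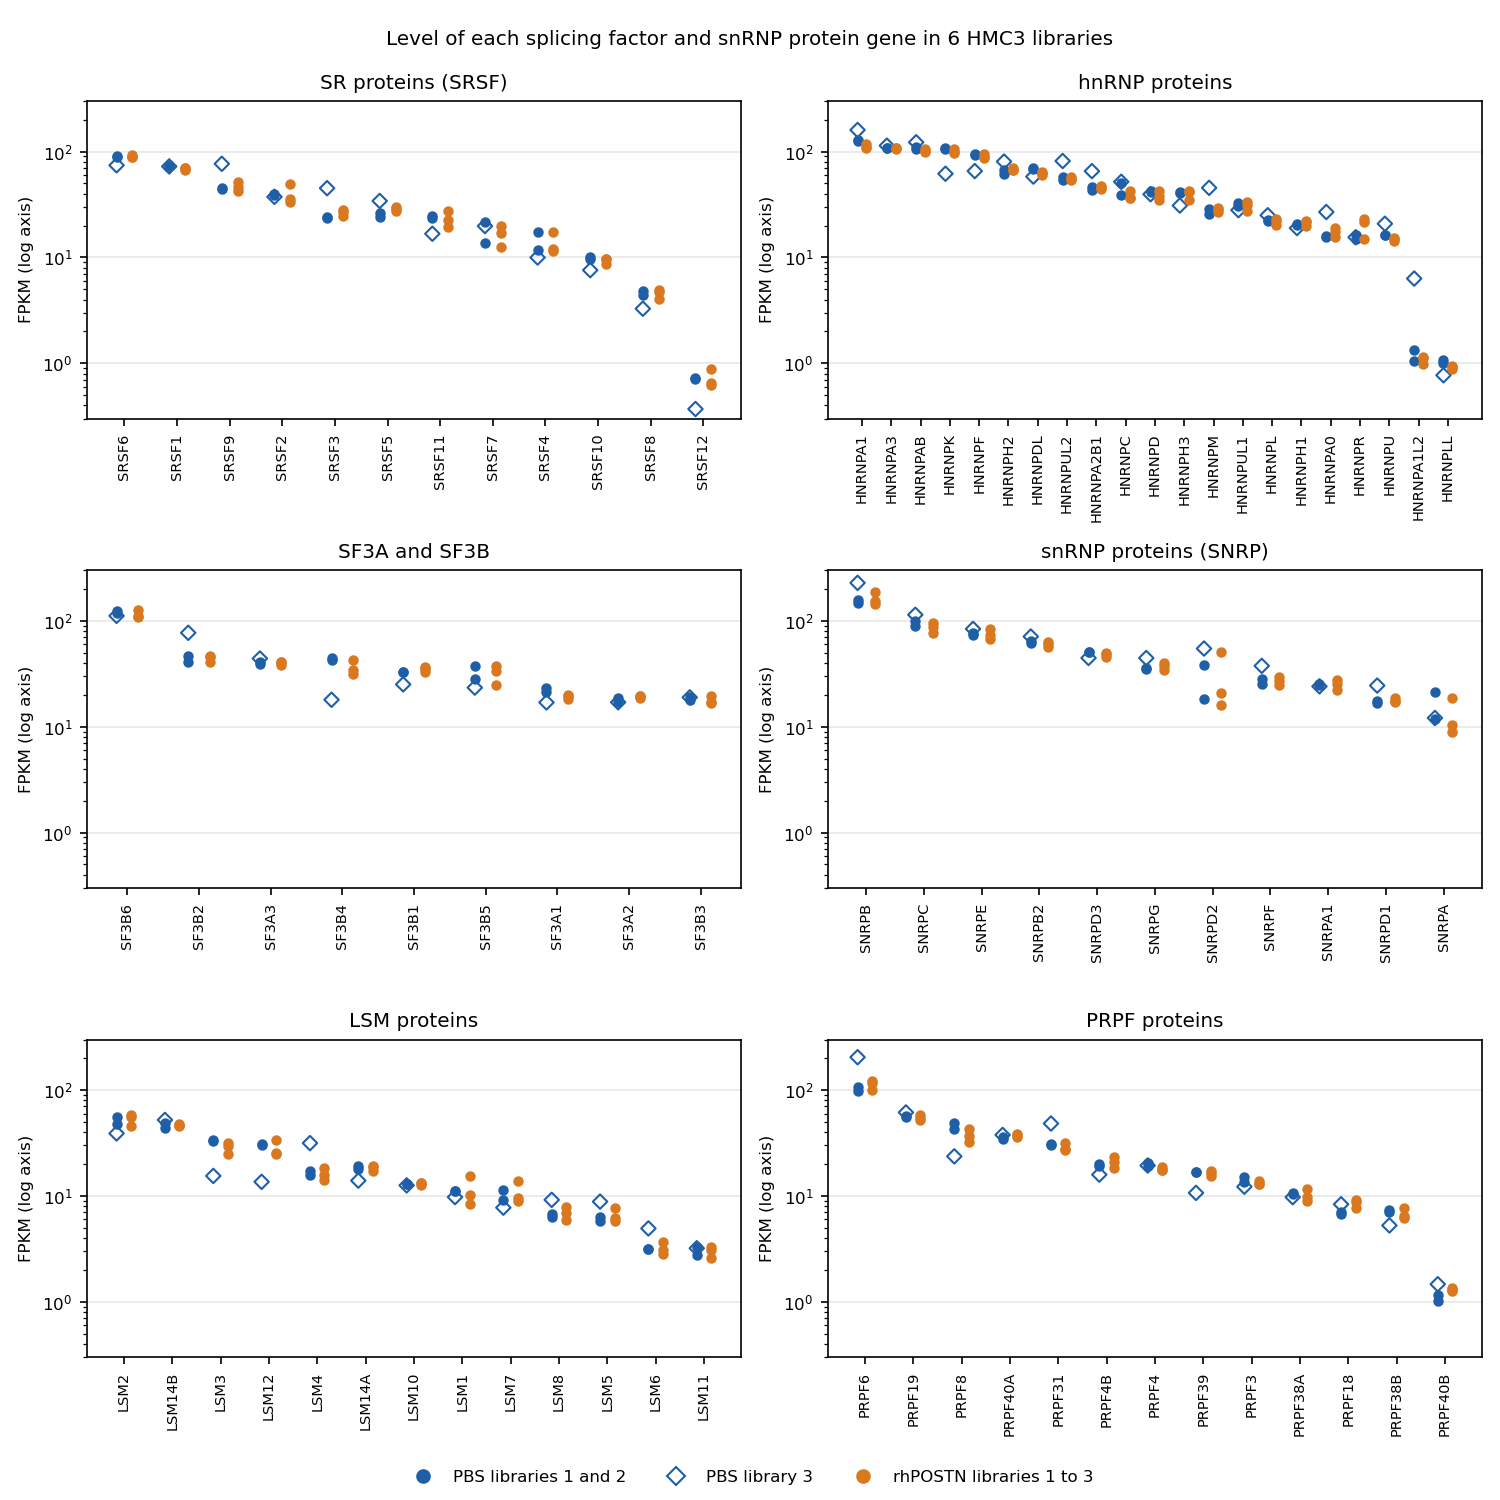
FPKM on a log axis of the 79 members in each library, in 6 panels by family and ordered by mean level, with filled blue circles for PBS libraries 1 and 2, open diamonds for PBS library 3 and orange circles for the 3 rhPOSTN libraries. Most members lie above 10 FPKM and the circles of both groups lie close together, while the diamond lies away from them in many members, for example in HNRNPA1L2, SF3B4 and PRPF6.

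Setting the rhPOSTN libraries against the PBS libraries asks how these cells respond to periostin. None of the tested members passed the test. Limma, a linear model fitted to log2(FPKM + 1) across all genes, called 0 of the 77 tested members at a Benjamini-Hochberg adjusted p under 0.05, against 2 of all 10982 tested genes (0.0182%). At an unadjusted limma p under 0.05 there were also 0 members, against 3.21% of all tested genes. The smallest unadjusted p was 0.0623, for HNRNPA1, and the limma adjusted p-values of the members ran from 0.951 to 0.995. Log2 differences, given throughout as rhPOSTN minus PBS on the log2(FPKM + 1) scale, ranged from -0.65 (HNRNPA1L2) to 0.30 (HNRNPR), with a median of -0.04 among the members and 0.06 among all tested genes. Of the 77 members, 32 had a positive and 45 a negative difference. After scaling of the libraries by the median of ratios these counts were 19 and 58, with a median of -0.11 among the members and -0.0089 among all genes. The libraries are of bulk RNA, so that a different share of cells with a high level and a different level in every cell cannot be told apart.

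The 95% limma interval of the difference lay within 1 log2 unit of 0 in 73 of the 77 members. The other 4 were HNRNPA1L2, SNRPD2, SNRPA and LSM12, and their bounds reached from -1.77 (HNRNPA1L2) to 1.01 (LSM12). The rhPOSTN group was above the PBS group without overlap in 2 members (SF3A2 and SF3B1), against 8.94% of all tested genes, and below them in 4 members (HNRNPA1, HNRNPU, PRPF4 and SRSF1), against 2.76% of all tested genes. With counts this small, nothing is read from the members' shares. SF3A2, HNRNPU, HNRNPC and PRPF4 were named after their values had been seen. So were the genes below that are described for their place in PBS library 3 or their spread.

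Leaving out PBS library 3 did not add a call. Of the 78 members that could then be tested, 0 passed the adjusted limma threshold, against 0.1% of all genes, and 2 had an unadjusted limma p under 0.05, against 9.55% of all genes. These were PRPF18, which was higher after rhPOSTN, and HNRNPA1, which was lower, with limma adjusted p-values of 0.52 each. With weights that limma gave each library (0.0838 for PBS library 3 and 5.68 for PBS library 1), 0 members passed, and 7 members, 1 of them higher (PRPF18) and 6 lower (HNRNPA1 among them), had an unadjusted limma p under 0.05, against 16.3% of all genes (11.7% higher and 4.6% lower). The sign of the difference turned in 38 of the 77 members (49.4%) without PBS library 3, against 35.8% of all genes, and in 30 (39.0%) with the weights, against 32.5%.

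**Figure D2:**
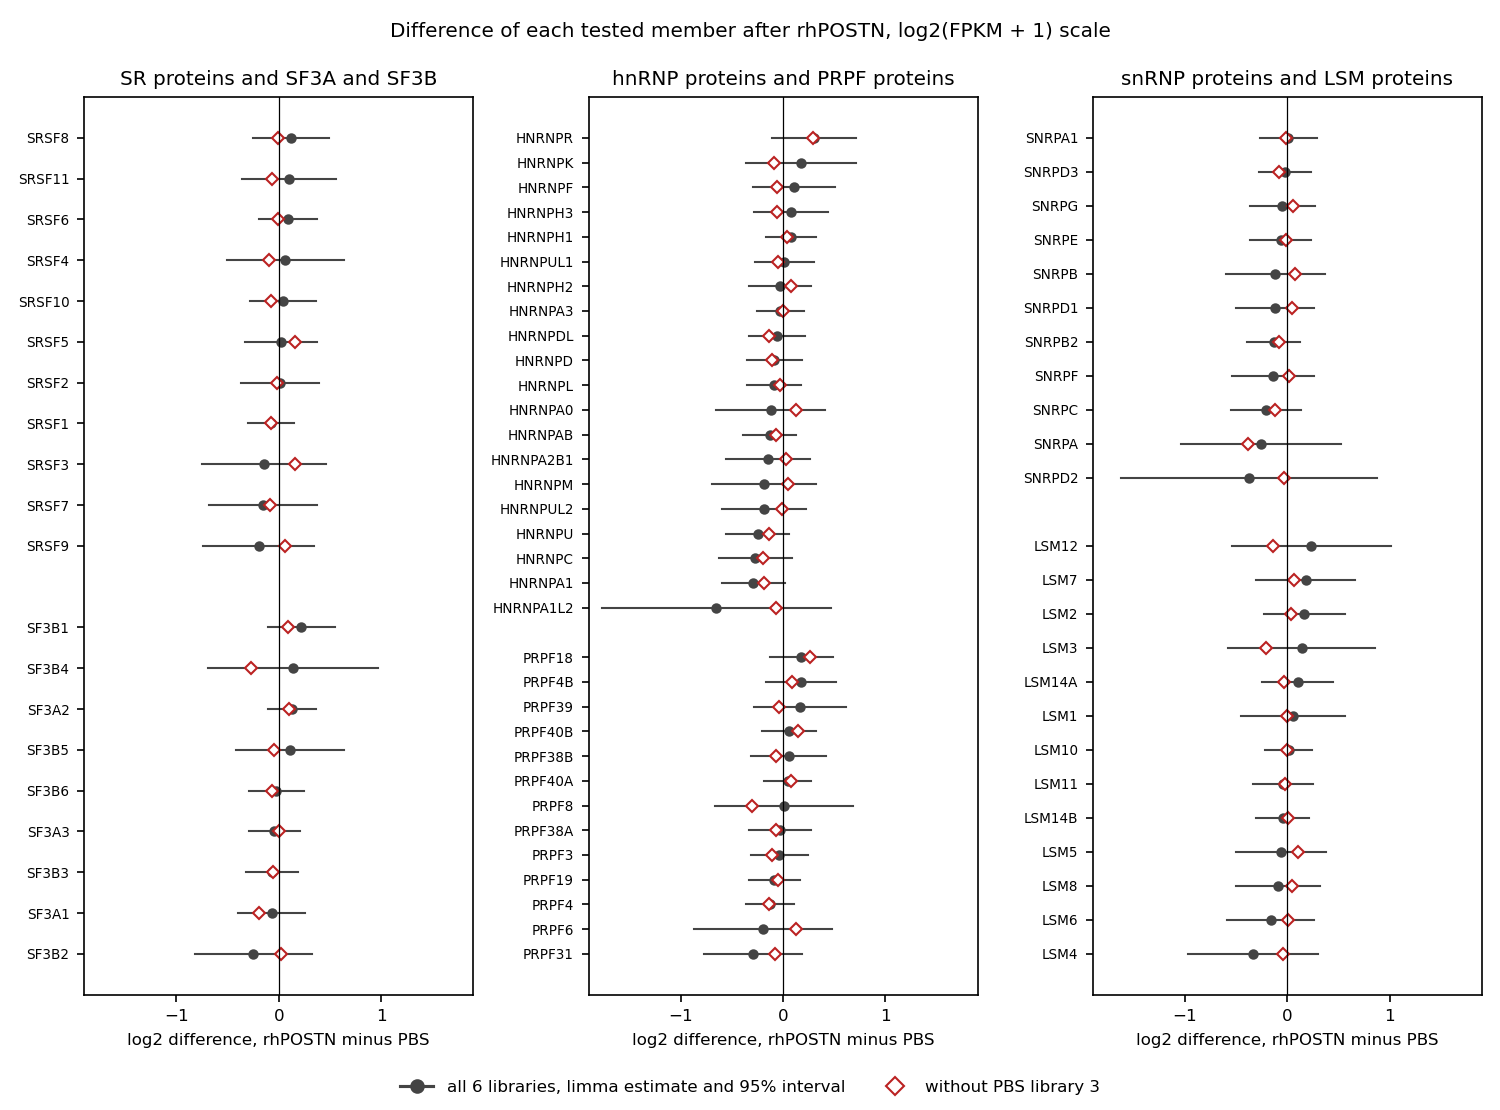
Log2 difference (rhPOSTN minus PBS, log2(FPKM + 1) scale) of the 77 tested members, in 3 panels with 2 families each, as filled circles with 95% limma intervals for all 6 libraries and as open red diamonds without PBS library 3. All 77 intervals cross 0, and the diamonds lie closer to 0 than the circles in HNRNPA1L2, SNRPD2 and LSM4.

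Among the SR proteins, 7 of the 11 tested genes had a positive and 4 a negative difference, with a median of 0.025 that turned to -0.013 without PBS library 3, to -0.0025 without rhPOSTN library 1 and to -0.055 under scaling by the median of ratios. SRSF6, the most abundant of them, was at 89.4, 91.5 and 74.1 FPKM in the PBS group against 89.6, 88.5 and 92.5 FPKM in the rhPOSTN group. It was nearly level across 5 libraries and lower in PBS library 3, and the groups overlapped. SRSF1, which binds exonic enhancers and is a founding member of the family, was at 72.9, 72.6 and 72.3 FPKM in the PBS group against 67.6, 69.2 and 69.9 FPKM in the rhPOSTN group. Its 3 rhPOSTN libraries lay just below its 3 PBS libraries, with a difference of -0.07 ± 0.09 (SE, n = 3 per group; limma adjusted p = 0.951). SRSF1 (ENSG00000136450.12_3, chromosome 17 from 56080721 to 56084707, minus strand, on GRCh37 as all coordinates here) overlaps AC015813.2 on the same strand. AC015813.2 was at 2.04, 3.39 and 13.0 FPKM in the PBS group against 1.79, 2.84 and 3.67 FPKM in the rhPOSTN group, and the sum of both genes was at 74.9, 76.0 and 85.3 FPKM in the PBS group against 69.4, 72.1 and 73.6 FPKM in the rhPOSTN group. The sum was highest in PBS library 3, where the overlapping gene was highest.

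SRSF9 had the largest negative difference of the SR proteins, -0.19 ± 0.23 (SE). It was at 45.1, 44.7 and 76.6 FPKM in the PBS group against 46.5, 51.8 and 42.6 FPKM in the rhPOSTN group, so that PBS library 3 lay above 5 libraries that overlapped, and without that library the difference was 0.059. SRSF3, a small SR protein that also takes part in mRNA export, was at 24.0, 23.5 and 45.0 FPKM in the PBS group against 27.0, 28.0 and 24.7 FPKM in the rhPOSTN group. PBS library 3 was again the highest, but the rhPOSTN libraries lay above the other PBS libraries, and the difference of -0.14 ± 0.25 (SE) turned to 0.15 without PBS library 3. SRSF7, a zinc knuckle SR protein, was at 13.8, 21.5 and 19.8 FPKM in the PBS group against 17.0, 19.7 and 12.6 FPKM in the rhPOSTN group, with PBS library 1 and rhPOSTN library 3 low and the rest between 17.0 and 21.5 FPKM. SRSF8, which arose as a copy of SRSF2, and SRSF11 had the largest positive differences, 0.12 ± 0.15 and 0.10 ± 0.19 (SE). SRSF8 was at 4.46, 4.78 and 3.28 FPKM in the PBS group against 4.06, 4.73 and 4.96 FPKM in the rhPOSTN group, and SRSF11 at 24.8, 23.4 and 16.7 FPKM in the PBS group against 27.3, 19.5 and 22.6 FPKM in the rhPOSTN group. In both, PBS library 3 was lowest, and both differences were negative without it (-0.012 and -0.066). SRSF2, which binds exonic enhancers and is a known target of mutation in myeloid disease, was at 33.4 to 39.8 FPKM in 5 libraries and at 49.0 FPKM in rhPOSTN library 3.

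The hnRNP genes included the members with the largest differences in both directions. Of the 20 tested, 6 had a positive and 14 a negative difference, with a median of -0.088 in all libraries, -0.057 without PBS library 3 and -0.17 under scaling by the median of ratios. HNRNPA1, a repressor of exon inclusion that binds splicing silencers, was the most abundant hnRNP gene (ENSG00000135486.17_3, chromosome 12 from 54673977 to 54680872, plus strand). It was at 127, 129 and 159.7 FPKM in the PBS group against 109, 119 and 111 FPKM in the rhPOSTN group. All 3 rhPOSTN libraries lay below all 3 PBS libraries, and PBS library 3 was the highest. The means were 139 ± 18.3 FPKM in the PBS group and 113 ± 5.26 FPKM in the rhPOSTN group (SD, n = 3 each), and the difference of -0.29 ± 0.13 (SE; 95% interval -0.60 to 0.02) missed the limma threshold (adjusted p = 0.951, and 0.236 to 1.00 over the alternatives). Without PBS library 3 it was -0.18. HNRNPU, a nuclear scaffold protein, was at 16.4, 16.3 and 20.8 FPKM in the PBS group against 15.4, 14.1 and 14.8 FPKM in the rhPOSTN group, again with the rhPOSTN libraries below all PBS libraries and PBS library 3 the highest (difference -0.25 ± 0.13, SE; limma adjusted p = 0.951). HNRNPC, which binds uridine tracts, was at 50.3, 38.6 and 51.8 FPKM in the PBS group against 36.5, 36.6 and 42.3 FPKM in the rhPOSTN group. PBS library 2 lay among the rhPOSTN libraries, the other PBS libraries above them. Without PBS library 2 the unadjusted limma p fell under 0.05 (adjusted p = 0.751), as in 366 of 11011 tested genes. Leaving out the library that makes the groups overlap lowers p by itself, so nothing is read from this.

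HNRNPA1L2, a retrocopy of HNRNPA1, had the largest negative difference of all members, -0.65 ± 0.47 (SE; 95% interval -1.77 to 0.46). It was at 1.06, 1.32 and 6.31 FPKM in the PBS group against 0.992, 1.11 and 1.14 FPKM in the rhPOSTN group. A single library, PBS library 3, was high, the other 5 overlapped between 0.992 and 1.32 FPKM, and without that library the difference was -0.071. Its coding sequence is nearly identical to that of HNRNPA1. In the GENCODE 29 transcripts the coding sequences of both genes have 960 bases each, of which 15 differ (98.4% identical), and the longest identical run has 174 bases. The stretch from base 589 to base 648 of each coding sequence is shown, 5′ to 3′, because it holds 3 of the differing bases, which stand in capitals.
HNRNPA1: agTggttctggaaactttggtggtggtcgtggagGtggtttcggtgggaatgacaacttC
HNRNPA1L2: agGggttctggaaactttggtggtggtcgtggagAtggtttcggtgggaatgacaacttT
Windows of 75 bases were taken every 10 bases in the longest protein-coding transcript of each gene. Of these, 44.6% in HNRNPA1L2 and 27.4% in HNRNPA1 also occur in another GENCODE gene of any name. HNRNPA1 held 35.4% of the windows of HNRNPA1L2. For HNRNPA1 the largest share with a single gene was 19.0%, with HNRNPA1P48. How the estimates of the authors divided such reads is not given, so the values of both genes are uncertain.

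HNRNPR had the largest positive difference of all members. It was at 16.4, 15.1 and 15.5 FPKM in the PBS group against 23.1, 21.4 and 15.0 FPKM in the rhPOSTN group. Libraries 1 and 2 after rhPOSTN were above all PBS libraries, whereas rhPOSTN library 3 was the lowest of all 6, so the groups overlapped. The difference was 0.30 ± 0.17 (SE; 95% interval -0.11 to 0.71; limma adjusted p = 0.951), and 0.30 without PBS library 3. Without rhPOSTN library 3 it was 0.48, with an unadjusted limma p under 0.05 (adjusted p = 1.00), as in 179 of 10988 tested genes. Here too the library that makes the groups overlap was left out, so nothing is read from this. HNRNPK, which binds cytosine-rich RNA, had the next largest positive difference of the hnRNP genes, 0.17 ± 0.22 (SE). It was at 108, 105 and 61.7 FPKM in the PBS group against 97.0, 98.7 and 105 FPKM in the rhPOSTN group, low in PBS library 3 alone, and the difference was -0.087 without it. HNRNPF, which binds runs of guanine, followed the same course, with 65.4 FPKM in PBS library 3 and 87.4 to 95.3 FPKM in the others. HNRNPM, HNRNPA2B1, HNRNPA0 and HNRNPUL2 had PBS library 3 at the top instead. HNRNPM was at 45.4 FPKM there and at 25.9 to 29.5 in the others, HNRNPA2B1 at 65.3 against 43.1 to 47.5, HNRNPA0 at 26.8 against 15.4 to 18.8, and HNRNPUL2 at 81.4 against 53.6 to 57.4. HNRNPA3 had the smallest coefficient of variation of the tested hnRNP genes and was at 107, 107 and 114 FPKM in the PBS group against 106, 107 and 108 FPKM in the rhPOSTN group. This coefficient was 2.48% over the 6 libraries, and 0.539% without PBS library 3.

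The SF3A and SF3B genes encode the part of the U2 snRNP that holds the branch site. Of the 9 tested, 4 had a positive and 5 a negative difference (median -0.023, -0.046 to 0.021 with single libraries left out and -0.11 under scaling by the median of ratios). SF3B1, the subunit that clamps the branch helix and is often mutated in myeloid cancers, had the largest positive difference (ENSG00000115524.15_2, chromosome 2 from 198254508 to 198299815, minus strand). It was at 32.6, 32.9 and 25.1 FPKM in the PBS group against 35.2, 33.1 and 36.9 FPKM in the rhPOSTN group. The groups did not overlap, but rhPOSTN library 2 exceeded PBS library 2 by little and PBS library 3 was the lowest. The difference of 0.22 ± 0.14 (SE; 95% interval -0.11 to 0.55; limma adjusted p = 0.951) was 0.095 without PBS library 3. SF3A2 was at 18.6, 17.2 and 17.0 FPKM in the PBS group against 19.7, 19.6 and 18.7 FPKM in the rhPOSTN group, also without overlap but with a small difference of 0.13 ± 0.10 (SE).

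SF3B6, which touches the branch adenosine, was the most abundant of the family, with 118, 123 and 111 FPKM in the PBS group against 109, 127 and 112 FPKM in the rhPOSTN group and overlapping groups. SF3B4 and SF3B2 moved in opposite directions in PBS library 3. SF3B4 was at 42.7, 44.2 and 17.9 FPKM in the PBS group against 31.7, 34.2 and 42.3 FPKM in the rhPOSTN group, and its difference of 0.14 was -0.27 without that library. SF3B2 was at 46.9, 40.6 and 77.0 FPKM in the PBS group against 46.6, 45.8 and 40.5 FPKM in the rhPOSTN group, and its difference of -0.25 was 0.018. SF3A1, which had the second most negative difference of the family, was at 23.0, 21.0 and 16.9 FPKM in the PBS group against 19.8, 18.4 and 19.3 FPKM in the rhPOSTN group. It was lowest in PBS library 3, and its difference went from -0.07 to -0.19 without it. The products of SF3B2 and SF3B4 are subunits of the same SF3B complex, and only their mRNA was measured here.

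Among the 11 SNRP genes, 10 had a negative and 1 a positive difference, with a median of -0.12. Without PBS library 3, 7 were negative and 4 positive, with a median of -0.016. These counts were the same without rhPOSTN library 1 (median -0.078), and without rhPOSTN library 3 all 11 were negative (median -0.054). In PBS library 3 the SNRP genes made up 0.378% of the summed FPKM. They made up 0.299% and 0.317% in the other PBS libraries and 0.285%, 0.338% and 0.292% after rhPOSTN. Under scaling by the median of ratios all 11 were negative, with a median of -0.20.

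The 7 genes of the Sm ring, whose products occur once each in the ring, differed in mRNA level. SNRPB was the highest, with 148, 158 and 228 FPKM in the PBS group against 152, 188 and 145 FPKM in the rhPOSTN group, and SNRPD1 the lowest, with 17.5, 16.7 and 24.4 FPKM in the PBS group against 17.5, 18.6 and 16.9 FPKM in the rhPOSTN group. The ratio of their means was 9.13, and it lay between 8.44 and 10.1 in the single libraries. Between them the order was SNRPE (mean 76.4 FPKM), SNRPD3 (48.0), SNRPG (37.8), SNRPD2 (33.1) and SNRPF (28.7). SNRPG and SNRPD2, and SNRPD2 and SNRPF, changed places between libraries (3 of 6 each way) and could not be ordered, while the other neighbours kept their order in 6 of 6 libraries. All 7 differences were negative in the 6 libraries (median -0.12) and under both other scalings (medians -0.10 and -0.20), while 4 were positive and 3 negative without PBS library 3 (median 0.013). SNRPB was highest in PBS library 3 and went from -0.12 to 0.074 without it.

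SNRPD2 varied most of all members with PBS library 3 left out. It was at 18.3, 38.0 and 54.7 FPKM in the PBS group against 20.9, 50.3 and 16.1 FPKM in the rhPOSTN group, and each group thus held both low and high libraries, with coefficients of variation of 51.3% over 6 and 51.6% over the 5 libraries without PBS library 3. Its difference of -0.37 ± 0.52 (SE; 95% interval -1.63 to 0.88) therefore says little. SNRPD2 overlaps QPCTL on the opposite strand. SNRPA, a U1 protein, varied in a similar way, with 11.9, 21.2 and 12.1 FPKM in the PBS group against 8.85, 10.3 and 18.7 FPKM in the rhPOSTN group, but in other libraries, since PBS library 2 and rhPOSTN library 3 were its high ones (difference -0.26 ± 0.33, SE). The remaining U1 and U2 proteins were steadier. SNRPC, of the U1 snRNP, was at 89.9, 98.7 and 114 FPKM in the PBS group against 76.2, 96.3 and 88.2 FPKM in the rhPOSTN group, and SNRPA1, of the U2 snRNP, at 24.7, 25.3 and 24.0 FPKM in the PBS group against 22.1, 27.5 and 25.1 FPKM in the rhPOSTN group. The difference of SNRPC was -0.21 ± 0.14 (SE), and that of SNRPA1, the 1 positive value of the family, 0.01, which was negative under scaling by the median of ratios.

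**Figure D3:**
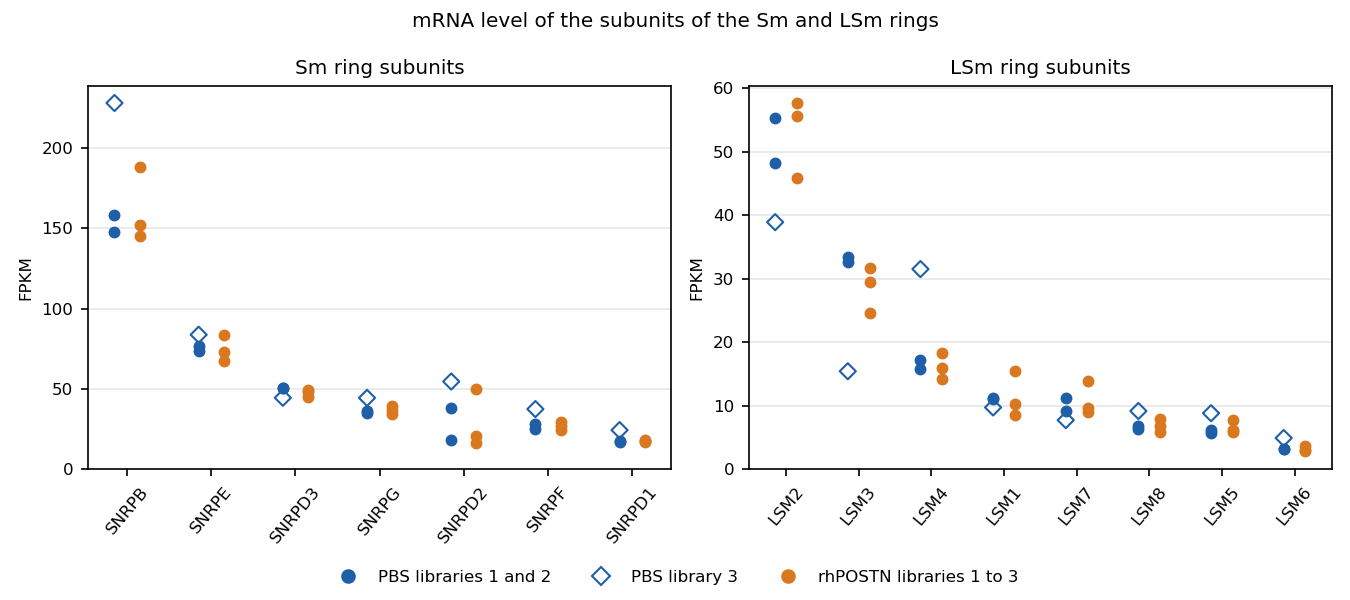
FPKM on linear axes of the 7 Sm ring genes (left) and the 8 LSm ring genes (right) in each library, with filled blue circles for PBS libraries 1 and 2, open diamonds for PBS library 3 and orange circles for the rhPOSTN libraries. SNRPB lies above all other Sm genes in every library and LSM2 above all other LSm genes, and the points of SNRPD2 spread from 16.1 to 54.7 FPKM in both groups.

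The LSM genes had a median difference of 0.015, with 7 positive and 6 negative values among 13 tested, and -0.0032 without PBS library 3. Under scaling by the median of ratios 5 were positive and 8 negative, with a median of -0.062. LSM2 to LSM8 form the nuclear ring that binds the end of U6, and LSM1 in place of LSM8 gives the cytoplasmic ring of mRNA decay. LSM2 was the highest of these 8 genes, with 48.2, 55.3 and 38.9 FPKM in the PBS group against 45.8, 57.6 and 55.7 FPKM in the rhPOSTN group, and LSM6 the lowest, with 3.16, 3.17 and 4.93 FPKM in the PBS group against 2.85, 3.08 and 3.66 FPKM in the rhPOSTN group. The ratio of their means was 14.5, and between 7.89 and 18.7 in single libraries. In between lay LSM3 (mean 27.9 FPKM), LSM4 (18.8), LSM1 (11.0), LSM7 (10.1), LSM8 (7.17) and LSM5 (6.76). LSM3 exceeded LSM4 in 5 of 6 libraries, LSM1 exceeded LSM7 in 4, LSM7 exceeded LSM8 in 5 and LSM8 exceeded LSM5 in 5, and the ranges of these neighbours overlapped. LSM2 lay above LSM3, LSM4 above LSM7, and LSM5 above LSM6 in 6 of 6 libraries without overlap. LSM1, which sets the cytoplasmic ring apart, was at 8.48 to 11.2 FPKM in 5 libraries and at 15.5 FPKM in rhPOSTN library 2, and LSM7 was also highest there, at 13.8 FPKM.

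PBS library 3 exchanged LSM3 and LSM4. LSM3 was at 33.5, 32.7 and 15.4 FPKM in the PBS group against 24.6, 29.5 and 31.7 FPKM in the rhPOSTN group, and LSM4 at 15.9, 17.3 and 31.5 FPKM in the PBS group against 18.4, 15.9 and 14.2 FPKM in the rhPOSTN group. The low value of LSM3 and the high value of LSM4 thus fell in the same library, and LSM4 had the largest negative difference of the family, -0.34 ± 0.26 (SE), which was -0.041 without that library. LSM12, whose product lies outside both rings, had the largest positive difference, 0.23 ± 0.32 (SE; 95% interval -0.54 to 1.01). It was at 30.4, 31.0 and 13.6 FPKM in the PBS group against 24.96, 25.6 and 33.5 FPKM in the rhPOSTN group. PBS library 3 held less than any other library, and the difference turned to -0.14 without it. LSM7 had a difference of 0.18 ± 0.20 and LSM6 of -0.16 ± 0.18 (SE), the latter 0.0057 without PBS library 3. LSM14B, a component of cytoplasmic granules, was at 48.5, 44.1 and 52.2 FPKM in the PBS group against 45.5, 47.8 and 46.4 FPKM in the rhPOSTN group. LSM10, which with LSM11 belongs to the U7 snRNP of histone mRNA processing, was the member with the smallest coefficient of variation, 2.07%, and LSM11 was at 2.59 to 3.30 FPKM.

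Of the 13 PRPF genes, 7 had a positive and 6 a negative difference (median 0.011, -0.045 without PBS library 3 and -0.069 under scaling by the median of ratios). PRPF6, which bridges the tri-snRNP, was the most abundant, with 108, 98.3 and 204 FPKM in the PBS group against 122, 116 and 101 FPKM in the rhPOSTN group. PBS library 3 was far above the others, which overlapped, and the difference of -0.20 ± 0.28 (SE) was 0.13 without it. PRPF31, a protein of the tri-snRNP that is mutated in retinitis pigmentosa, had the largest negative difference, -0.29 ± 0.20 (SE). It was at 30.8, 30.0 and 48.3 FPKM in the PBS group against 27.2, 31.6 and 27.7 FPKM in the rhPOSTN group, again with PBS library 3 on top, and -0.076 remained without it. PRPF8, the scaffold of the catalytic centre, was lowest in PBS library 3, with 49.1, 43.2 and 23.6 FPKM in the PBS group against 43.3, 32.0 and 37.1 FPKM in the rhPOSTN group. Its difference was 0.01 over the 6 libraries and -0.30 without PBS library 3.

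PRPF18, which acts in the second catalytic step, had the largest positive difference of the family. It was at 7.05, 6.81 and 8.34 FPKM in the PBS group against 9.12, 8.80 and 7.61 FPKM in the rhPOSTN group. The libraries ran from 6.81 to 9.12 FPKM, and PBS library 3 was above rhPOSTN library 3, so the groups overlapped. The difference was 0.18 ± 0.13 (SE; 95% interval -0.13 to 0.49), and 0.26 without PBS library 3. A share of 39.4% of its transcript windows also occurs in another annotated gene, so its values are uncertain. PRPF4B, a kinase of the tri-snRNP, was next, with 19.9, 19.1 and 15.9 FPKM in the PBS group against 23.4, 18.2 and 20.8 FPKM in the rhPOSTN group and a difference of 0.18 ± 0.14 (SE). PRPF4, of the U4 and U6 snRNP, was at 20.6, 19.2 and 19.4 FPKM in the PBS group against 18.8, 17.5 and 17.7 FPKM in the rhPOSTN group. Its rhPOSTN libraries lay below its PBS libraries by a small margin (difference -0.13 ± 0.10, SE; limma adjusted p = 0.951). PRPF19, the ubiquitin ligase of the complex that activates the spliceosome, was at 56.0, 57.2 and 61.4 FPKM in the PBS group against 54.8, 58.1 and 51.7 FPKM in the rhPOSTN group, with overlapping groups.

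PBS library 3 set the outer values of most members. It was the highest of the 6 libraries in 33 of the 77 tested members and the lowest in 27, together 77.9%, against 74.4% of all tested genes. It lay more than 0.25 log2 units above all 5 others in 17 members (22.1%, against 16.2% of all genes) and below all others by as much in 10 (13.0%, against 25.4% of all genes). Among the other libraries, rhPOSTN library 2 did so in 2 members (LSM1 and LSM7), rhPOSTN library 3 in 1 (SRSF2) and PBS libraries 1 and 2 and rhPOSTN library 1 in 0, always above. The largest shifts of PBS library 3 against the median of the others were 1.79 and 1.34 log2 units upward in HNRNPA1L2 and SNRPD2 and -1.19, -1.11 and -0.99 in SF3B4, LSM12 and LSM3. A shift of more than 0.5 log2 units in either direction was found in 22 members (28.6%), 14 upward and 8 downward, against 35.1% of all tested genes.

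Across the 77 members, the Pearson correlation of log2(FPKM + 1) with PBS library 3 was 0.914 to 0.942 over the 5 pairs that include it and 0.976 to 0.994 over the other 10 pairs. The members share their libraries in each of these values. The median coefficient of variation of the members was 13.4% over 6 libraries and 7.58% without PBS library 3, and it was smaller in 61 of 77. Among all genes these medians were 17.4% and 10.5%. Across genes, the shift of PBS library 3 went with the GC content of the transcript in the whole table (Spearman's rho 0.48, n = 10894 genes) and hardly among the members (0.043, n = 77), and with transcript length the values were -0.26 and -0.080. Genes are not independent replicates, and the part of GC content and length in the members' values was not tested.

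**Figure D4:**
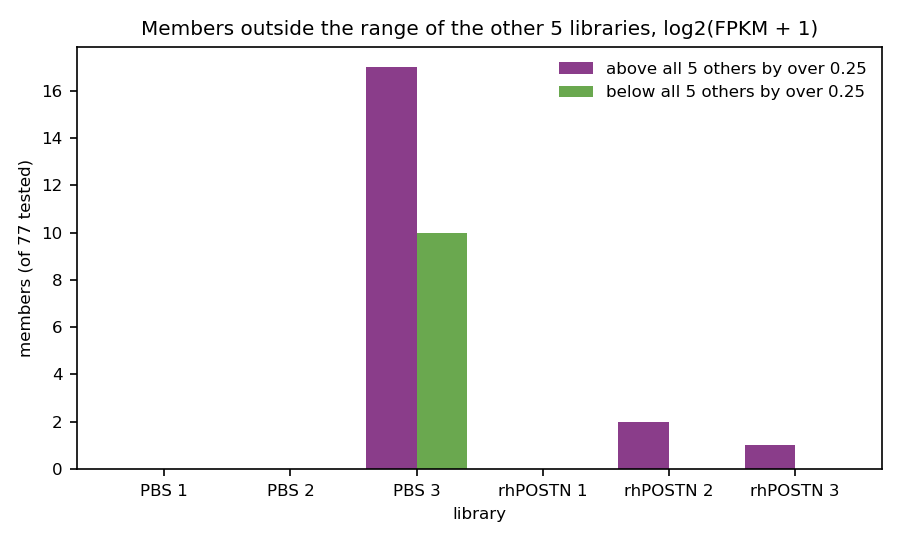
Number of the 77 tested members that lie more than 0.25 log2(FPKM + 1) units above (purple) or below (green) all 5 other libraries, for each library. PBS library 3 has 17 members above and 10 below, rhPOSTN library 2 has 2 above, rhPOSTN library 3 has 1 above, and the remaining libraries have 0.

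The members were spread widely in sequence properties. Each gene was represented by its longest protein-coding GENCODE transcript. Those of the members had a median of 2868 bases and 45.1% GC, against 3358 bases and 48.7% among all tested genes. Member transcripts ranged from 575 to 9720 bases and from 35.3% to 66.6% GC. The members lay on 22 chromosomes, with 12 on chromosome 1 and 10 on chromosome 19. Of the 77 tested, 29 (37.7%) shared at least 1 window of 75 bases with another GENCODE gene, against 24.6% of all tested genes with a transcript, and 11 (14.3%) shared at least 10% of their windows, against 10.8%. The highest shares were 57.4% in SRSF1, 45.0% in HNRNPUL2, 44.6% in HNRNPA1L2 and 39.4% in PRPF18. In the deposited tables, 6 members overlapped another listed gene on the same strand and 21 one on the opposite strand, and no source used here says if strand entered the estimates. HNRNPH2 overlaps the readthrough gene RPL36A-HNRNPH2, which was at 9.55, 3.62 and 54.0 FPKM in the PBS group against 14.0, 11.9 and 9.89 FPKM in the rhPOSTN group, high in PBS library 3. HNRNPH2 itself was at 67.3, 61.5 and 80.4 FPKM in the PBS group against 67.5, 69.5 and 66.8 FPKM in the rhPOSTN group, also highest in that library.

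The rest of the splicing machinery was read from a list of 163 further genes (other snRNP and spliceosome proteins, snRNP assembly factors, kinases and import factors of SR proteins, and other regulators), of which 155 were listed and 153 tested. Limma called 0 of them at the adjusted threshold, and 3 had an unadjusted limma p under 0.05, against 3.21% of all tested genes. These were PPIG and WBP4 with higher values and SFPQ with lower ones, and under scaling by the median of ratios PPIG and WBP4 were no longer among them. Their median difference was 0.0019, with 78 positive and 75 negative, and -0.069 under scaling by the median of ratios, with 53 positive and 100 negative. PPIG, a cyclophilin with an SR-like domain, was at 19.1, 15.4 and 16.6 FPKM in the PBS group against 20.9, 21.7 and 23.4 FPKM in the rhPOSTN group. WBP4, a protein of the spliceosome before its activation, was at 10.1, 10.3 and 9.49 FPKM in the PBS group against 11.4, 13.4 and 12.5 FPKM in the rhPOSTN group. In both, all rhPOSTN libraries were above all PBS libraries, with differences of 0.35 ± 0.12 and 0.29 ± 0.11 (SE; limma adjusted p = 0.951 for both). SFPQ, a paraspeckle protein that binds RNA and DNA, was at 31.8, 28.95 and 32.0 FPKM in the PBS group against 26.2, 25.1 and 25.1 FPKM in the rhPOSTN group, with all rhPOSTN libraries below all PBS libraries (difference -0.27 ± 0.10, SE; limma adjusted p = 0.951). Without PBS library 3, the 3 differences were 0.34, 0.26 and -0.25, and 0 of 154 genes passed the adjusted threshold.

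The enzymes that phosphorylate and import SR proteins were a small list of 9 genes, of which 8 were tested. Of these, 7 had a positive and 1 a negative difference, with a median of 0.10, and 0.043 without PBS library 3. Among all tested genes, 6974 of 10982 were positive. In CLK1, CLK4 and DYRK1A, nuclear kinases of SR proteins that were named after their values had been seen, all 3 rhPOSTN libraries were above all PBS libraries, as in 8.94% of all tested genes. CLK1 was at 9.69, 10.2 and 8.27 FPKM in the PBS group against 10.9, 11.7 and 11.8 FPKM in the rhPOSTN group. CLK4 was at 3.06, 3.16 and 2.00 FPKM in the PBS group against 3.39, 3.44 and 3.55 FPKM in the rhPOSTN group, and DYRK1A at 4.33, 4.27 and 1.23 FPKM in the PBS group against 5.53, 4.89 and 4.81 FPKM in the rhPOSTN group. In all 3 genes PBS library 3 was the lowest library, and without it the differences went from 0.27 to 0.18, from 0.27 to 0.12 and from 0.61 to 0.20. The 17 genes of snRNP assembly, which loads the Sm ring onto snRNA, had 8 positive and 9 negative differences with a median of -0.11, and -0.064 without PBS library 3.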

How the data were processed

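RNA-seq of HMC3 cells gave 3 libraries after PBS and 3 after rhPOSTN, grouped by the treatment label. According to the methods and labels, the authors enriched mRNA, built stranded libraries, trimmed with Cutadapt, aligned with HISAT2 to GRCh37 and estimated abundance with StringTie and Ballgown. The versions of these tools were not given in the sources used. FPKM were deposited per gene and library, as normalized by the authors. The rhPOSTN table names no unit, and FPKM was taken from the PBS table and the methods. How reads that match several genes were divided is not given, so genes that share sequence may have traded values. The tables had 0 further columns of samples. Read counts cannot be had from FPKM, and depth is unknown.

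Values were analysed as log2(FPKM + 1). Genes with a mean of at least 1 FPKM in at least 1 group were tested with limma 3.58.1 in R 4.3.3 (lmFit, eBayes with trend, two-sided, no covariate), with Benjamini-Hochberg adjustment over all 10982 tested genes and a threshold of 0.05. The fit was tested on simulated data. Transcript length, GC content and shared windows of 75 bases came from GENCODE 29 by gene identifier, without its coordinates. The longest protein-coding transcript of each gene was used, which need not be the one expressed. The members and lists were chosen with earlier results of these data known. A marker of the microglial list is not reported here. Genes named are, per family, the 2 most abundant and the 2 with the largest difference in each direction, members with an unadjusted p under 0.05, members not tested, ring subunits, and further splicing genes with an unadjusted p under 0.05. Exceptions are stated. As alternatives the pseudocount was set to 0.1 or 5, the filter removed or raised to 5 FPKM, the libraries scaled to equal sums or by the median of ratios, limma run without trend, with robust hyperparameters or with library weights, library numbers taken as a replicate block, and single libraries left out in turn.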

Additional observations from a re-analysis of the deposited data

How the results depend on the processing

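Under all 16 alternatives limma called 0 of the members and 0 of the other splicing genes, and the members' median difference kept its sign, from -0.11 (median of ratios) to -0.023 (without rhPOSTN library 1). Over all tested genes the 2 calls became 1 with a pseudocount of 0.1, with a filter at 5 FPKM and with the library number as the replicate block, 37 with library weights, and 1 to 11 when single libraries were left out (11 without PBS library 3). The deviations of same-numbered libraries from their group means correlated at -0.044, -0.19 and -0.42. With 3 libraries per group and PBS library 3 apart from the rest, these values cannot decide whether same-numbered libraries were paired. With the replicate block 0 members passed, and PPIG, WBP4 and SFPQ were no longer at an unadjusted limma p under 0.05.

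LSM14B, SF3B6 and SRSF6, described above by their level, had differences of -0.047, -0.023 and 0.090 with all libraries. Among these genes and those whose difference is given above, signs turned under 3 kinds of alternatives, and none passed the adjusted threshold in any. With library weights, differences turned to -0.082 (HNRNPK), -0.077 (LSM12), 0.025 (LSM6), 0.054 (PRPF6), -0.34 (PRPF8), -0.21 (SF3B4), 0.071 (SNRPB), 0.15 (SNRPD2), -0.084 (SRSF11), 0.12 (SRSF3), 0.038 (SRSF7) and 0.024 (SRSF9). The median of ratios turned PRPF8 to -0.069 and SNRPA1 to -0.071. Over the fits that left out 1 library each, the lowest and highest differences were -0.087 and 0.31 (HNRNPK), -0.14 and 0.43 (LSM12), -0.11 and 0.010 (LSM14B), -0.25 and 0.0057 (LSM6), -0.39 and 0.13 (PRPF6), -0.30 and 0.21 (PRPF8), -0.19 and 0.021 (SF3A1), -0.44 and 0.018 (SF3B2), -0.27 and 0.35 (SF3B4), -0.091 and 0.020 (SF3B6), -0.064 and 0.089 (SNRPA1), -0.24 and 0.074 (SNRPB), -0.066 and 0.21 (SRSF11), -0.30 and 0.15 (SRSF3), -0.0045 and 0.15 (SRSF6), -0.33 and 0.016 (SRSF7), -0.012 and 0.21 (SRSF8) and -0.32 and 0.059 (SRSF9). Further members described by their level also turned without PBS library 3, for example HNRNPA0 (to 0.12), HNRNPF (to -0.064), LSM3 (to -0.21) and SNRPD1 (to 0.042). The cause was not tested. With 3 libraries per group and unknown depth, a difference that misses the threshold is not shown to be absent.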
